A study of Homo sapiens with 4 samples.

Results

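The genes described are 9 members of the plasminogen activator system, the serpins and the trypsin-like serine proteases, of 26485 gene names in the deposited tables. They are the activators PLAU and PLAT, the receptor PLAUR, the serpins SERPINE2, SERPINB2 and SERPINB5, and the proteases PRSS3, PRSS23 and ST14. They were picked by gene name from these families with the differences between paclitaxel-resistant and wt cells of both lines already known, PRSS3 because it passed the limit in both, so these differences are given as a description and without a test. SW1736 and 8505C are established human cell lines from anaplastic thyroid cancer (ATC), an undifferentiated thyroid carcinoma, and paclitaxel is a taxane that stabilizes microtubules. SW1736-PTX and 8505C-PTX were derived from them by selection for 6 months in rising paclitaxel, from 1 nM to 1.5 µM, and stayed in 1.5 µM, while SW1736 wt and 8505C wt, the paclitaxel-sensitive parental cells, received none. Selection in the 2 lines gave 1 resistant population each, mRNA was sequenced in 1 library per condition (4 libraries), and all cells shared the same growth medium.

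Plasmin is the broad protease that dissolves fibrin and degrades matrix around cells, and it is made from circulating plasminogen by the urokinase PLAU, which works bound to its cell surface receptor PLAUR, or by the tissue-type activator PLAT. Serpins are suicide inhibitors that trap a serine protease in a covalent complex; SERPINE2 and SERPINB2 act on the activators, while SERPINB5 (maspin) has a serpin fold but no inhibitory activity of the classic kind. PRSS3 (mesotrypsin) and PRSS23 are secreted trypsin-fold proteases, and ST14 (matriptase) is an epithelial, membrane-anchored one. High urokinase is a long-known mark of invasive carcinoma.

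From the ratio of deposited coverage to FPKM, the libraries held 43.5 to 57.9 M aligned reads, with more reads in each PTX library than in its wt library. Of 83 ribosomal protein genes 81 were above 0 in every library, and of 48 proteasome genes 46; the exceptions were RPL10L, RPL3L, PSMA8 and PSMB11. PSMD5, a proteasome assembly chaperone, was low in the PTX libraries, at 29.7 and 0.119 FPKM in SW1736 wt and SW1736-PTX, and at 4.74 and 0.0143 FPKM in 8505C wt and 8505C-PTX. ABCB1, the drug efflux pump selected by taxanes, went from 0 to 302 FPKM between the SW1736 libraries and from 0.363 to 497 FPKM between the 8505C libraries. In the thyroid lineage factors SW1736-PTX differed from its own parental library. The study's methods state short tandem repeat typing for SW1736 and 8505C, and do not say whether the resistant cells were typed. SW1736 wt held 38.2 FPKM of PAX8, and SW1736-PTX, 8505C wt and 8505C-PTX held 0.206, 0.123 and 0.146. NKX2-1 was listed at 0 in SW1736 wt and lay between 30.5 and 39.0 FPKM in the other 3 libraries. KRT19, an epithelial keratin, was at 266 FPKM in SW1736 wt and between 0 and 0.535 FPKM elsewhere. In these genes the library labelled SW1736-PTX therefore resembled the 8505C libraries more than SW1736 wt. For each compared member, the difference of SW1736-PTX is given below against both wt libraries. Counts by list and by neighbourhood in SW1736 are against SW1736 wt, except where 8505C wt is named. Of the 6 thyroid markers, 1 or 2 exceeded 0.5 FPKM in a library, with summed levels of 64.8, 37.0, 30.7 and 39.3 FPKM in SW1736 wt, SW1736-PTX, 8505C wt and 8505C-PTX. Summed epithelial markers were higher in both PTX libraries, through KRT8 and KRT18, at 854 and 2411 FPKM in SW1736 wt and SW1736-PTX and 951 and 2214 FPKM in 8505C wt and 8505C-PTX, while EPCAM and CDH1 stayed below 0.1 FPKM. Summed mesenchymal markers, led by VIM, were lower in SW1736-PTX, at 1882 FPKM against 4854 in SW1736 wt, and were 1544 and 1629 FPKM in the 8505C libraries. FN1 went from 1133 to 103 FPKM between the SW1736 libraries and from 91.7 to 270.4 FPKM between the 8505C libraries. The part of these marker differences in the results below was not tested. Summed fibroblast markers were 0.402 and 0.119 FPKM in the wt libraries and 6.17 and 6.81 FPKM in the PTX libraries, through PDGFRB. CDH5, an endothelial cadherin, was at 55.9 FPKM in 8505C wt and at most 4.53 FPKM elsewhere, and the summed leukocyte markers stayed between 0.576 and 4.55 FPKM. TSHR and SLC5A5, the thyrotropin receptor and the iodide transporter of thyroid cells, were listed at 0 in every library, and TG, thyroglobulin, was at most 0.00586 FPKM.

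Differences were taken as log2((PTX + 0.1)/(wt + 0.1)) of FPKM, fragments scaled to transcript length and to the depth of the library, a scale that understates the change of low genes. A gene entered a comparison when either library of the pair exceeded 0.5 FPKM, and a difference beyond 1.5 in either direction counted as past the limit. Of the 9 genes, 7 were compared in each line, because SERPINB2 and ST14 stayed below 0.5 FPKM throughout. In bulk RNA, fewer cells of a kind and less RNA per cell cannot be told apart. In SW1736-PTX against SW1736 wt, 3 were higher past the limit (PLAU, SERPINE2 and SERPINB5) where 15.7% of the 14202 genes compared were, and PRSS3 was lower, where 10.2% were. In 8505C-PTX against 8505C wt, 1 was higher (PRSS23) where 15.0% of 13794 genes were, and PRSS3 was lower, where 5.89% were. The median difference of the compared members was 0.25 in SW1736 and 0.76 in 8505C, against 0.01 and 0.11 over all genes compared. Against 8505C wt, a comparison that shares a library with each of the others, SW1736-PTX was higher in SERPINB5 and PRSS23, where 15.1% of genes passed, and lower in PRSS3, where 5.23% passed. The members nearest the limit were PLAU in SW1736, just inside at 1.50, then PLAT outside at -0.61, and in 8505C PRSS23 inside at 3.73 and PLAU outside at 0.96.

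**Figure D1:**
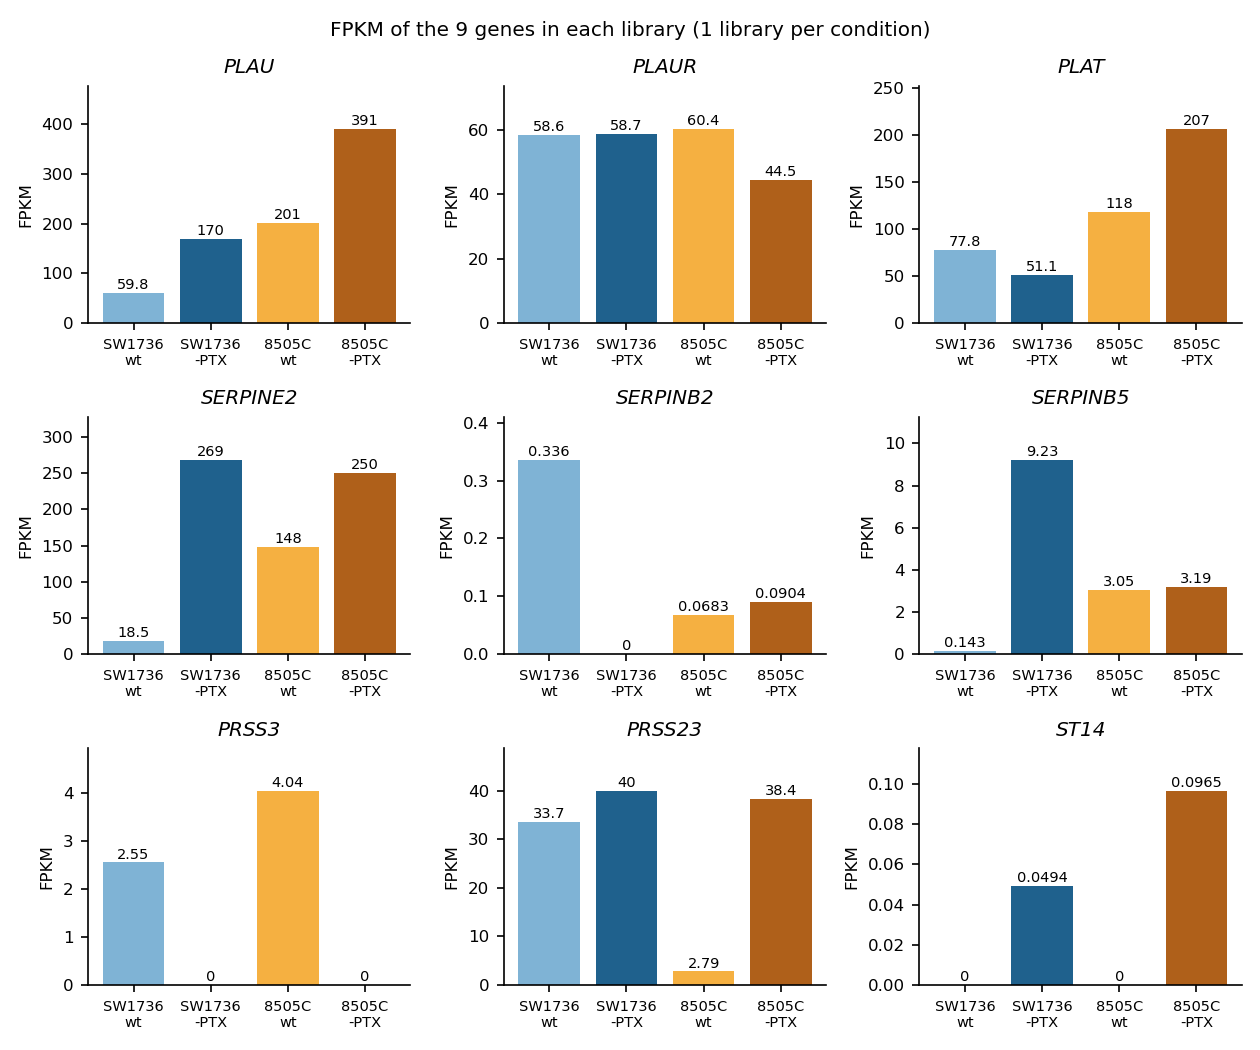
Bars give the FPKM of each of the 9 genes in the 4 libraries, 1 bar per library and no error bar because each condition had 1 library; each panel has its own axis from 0. PRSS3 is at 2.55 and 4.04 FPKM in the wt libraries and at 0 in both PTX libraries, PRSS23 is low only in 8505C wt (2.79 FPKM), and SERPINB5 and SERPINE2 are lowest in SW1736 wt.

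PLAU, the urokinase (chromosome 10, 73911104 to 73917500, hg38, plus strand, 11 exons), had 59.8 FPKM in SW1736 wt, against 169.8 in SW1736-PTX, 201.0 in 8505C wt and 390.7 in 8505C-PTX. By abundance it ranked 1314 in SW1736 wt but 345 in SW1736-PTX, 308 in 8505C wt and 158 in 8505C-PTX. PTX cells had 2.84 times the wt level in SW1736 (95% exact counting interval 2.76 to 2.92) and 1.94 times in 8505C (1.91 to 1.98). Such intervals come from approximate read numbers and cover counting error only, not the variation between cultures. The difference was 0.96 on the log2 scale in 8505C, short of the limit, and 1.50 in SW1736, so close to it that it fell short with a pseudocount of 1 FPKM (1.49), in TPM (1.46) or after centring on the median of all genes (1.49). Against 8505C wt, SW1736-PTX was slightly lower, at 0.845 times its level (0.829 to 0.861), so the direction of PLAU in SW1736-PTX depended on the wt library used. Between the parental libraries PLAU was 3.36 times higher in 8505C wt (3.27 to 3.45), a larger gap than either PTX library showed from its own wt. The opposite-strand gene C10orf55 overlaps 18.3% of the PLAU transcript, and whether the quantification used strand is not given in the sources used here.

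PLAUR, the urokinase receptor (chromosome 19, 43646095 to 43670346, minus strand, 7 exons), showed the most even level of the 9 genes, at 58.6 FPKM in SW1736 wt, just 58.7 in SW1736-PTX, then 60.4 in 8505C wt and 44.5 in 8505C-PTX. SW1736-PTX and SW1736 wt differed by less than their counting error (ratio 1.00, interval 0.959 to 1.04), and so did SW1736-PTX and 8505C wt (0.971, interval 0.930 to 1.01). 8505C-PTX was at 0.737 times 8505C wt (0.703 to 0.773), a log2 difference of -0.44. The ligand per receptor, PLAU over PLAUR in FPKM, was 1.02 in SW1736 wt but 2.89 in SW1736-PTX, 3.33 in 8505C wt and 8.77 in 8505C-PTX. The ratio thus followed PLAU, since the receptor varied little.

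PLAT, the tissue-type activator (chromosome 8, 42174718 to 42207676, minus strand, 14 exons), had 77.8 FPKM in SW1736 wt, against 51.1 in SW1736-PTX, 118 in 8505C wt and 207 in 8505C-PTX. Its direction differed between the lines: SW1736-PTX had 0.656 times the SW1736 wt level (0.639 to 0.675), and 8505C-PTX had 1.75 times the 8505C wt level (1.72 to 1.79), at -0.61 and 0.81 on the log2 scale, both short of the limit. Against 8505C wt the level in SW1736-PTX was lower still, at 0.433 times (0.422 to 0.445). PLAT was also the 1 gene of the 9 that was higher past the limit in 8505C-PTX than in SW1736-PTX, at 4.04 times (3.95 to 4.14), a comparison in which 7.79% of all genes passed in either direction.

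SERPINE2 (protease nexin-1), a secreted inhibitor of thrombin and of the plasminogen activators (chromosome 2, 223975048 to 224039319, minus strand, 9 exons), had 18.5 FPKM in SW1736 wt, against 269 in SW1736-PTX, 148 in 8505C wt and 250.3 in 8505C-PTX. SW1736 wt stood alone at the low end, with SERPINE2 ranked 4102 there and between 216 and 465 in the other libraries. SW1736-PTX had 14.5 times the SW1736 wt level (13.9 to 15.2), 3.85 on the log2 scale, and 8505C-PTX had 1.69 times the 8505C wt level (1.66 to 1.73), at 0.76. Against 8505C wt the excess of SW1736-PTX was 1.82 times (1.78 to 1.85), at 0.86, which is short of the limit. SERPINE2, PLAU and SERPINB5 thus separated SW1736 wt from the other 3 libraries as NKX2-1 did and in reverse to PAX8 and KRT19, and the part of this lineage difference in the values was not tested. The parental libraries themselves differed by 8.0 times (7.63 to 8.38), a comparison in which 17.6% of all genes passed in either direction, and in which PLAU, SERPINE2 and SERPINB5 were higher and PRSS23 lower in 8505C wt.

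Set against the activators within each library, PLAU over SERPINE2 in FPKM was 3.24 in SW1736 wt but 0.632 in SW1736-PTX, and 1.36 and 1.56 in 8505C wt and 8505C-PTX. PLAT over SERPINE2 was 4.21 in SW1736 wt but 0.190 in SW1736-PTX, and 0.798 and 0.825 in the 8505C libraries. Both ratios were thus highest in SW1736 wt and lowest in SW1736-PTX, and close to each other in the 8505C libraries. These are ratios of mRNA, and protein was not analysed here.

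**Figure D2:**
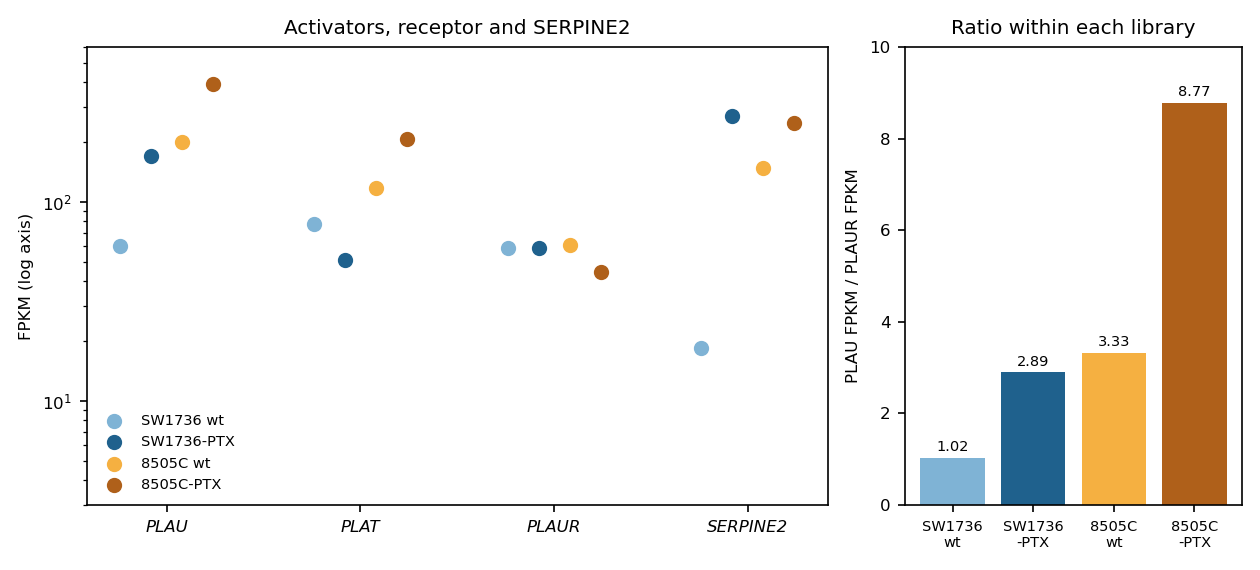
Left, FPKM on a log axis of the activators PLAU and PLAT, the receptor PLAUR and the inhibitor SERPINE2, 1 point per library; right, PLAU FPKM divided by PLAUR FPKM in each library, with the axis from 0. PLAUR lies between 44.5 and 60.4 FPKM while SERPINE2 spans 18.5 to 269 FPKM, and the ratio goes from 1.02 in SW1736 wt to 8.77 in 8505C-PTX.

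SERPINB2 (PAI-2), an inhibitor of urokinase found mainly inside cells (chromosome 18, 63887705 to 63903890, plus strand, 8 exons), was near the detection floor. SW1736 wt held 0.336 FPKM, it was listed at 0 in SW1736-PTX, and it was at 0.0683 and 0.0904 FPKM in 8505C wt and 8505C-PTX, roughly 31, 0, 6 and 9 reads. Read counts were not used here, and if a listed 0 stands for a count of 0, it allows up to 0.0272 FPKM in SW1736-PTX (3 reads). Of the 75-base stretches of its transcript, 25.9% also occur in transcripts of the overlapping gene ENSG00000289724, so its reads could be split. SERPINB2 was therefore not compared in any pair.

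SERPINB5, maspin, which lies on the same arm of chromosome 18 as SERPINB2 (63476911 to 63505085, plus strand, 7 exons), had 0.143 FPKM in SW1736 wt, against 9.23 in SW1736-PTX, 3.05 in 8505C wt and 3.19 in 8505C-PTX. It was nearly silent in SW1736 wt, where the value rests on roughly 18 reads against 1382 in SW1736-PTX. SW1736-PTX had 64.6 times the SW1736 wt level (40.9 to 109.8), 5.26 on the log2 scale. In 8505C the PTX and wt libraries differed by less than counting error (1.05 times, 0.908 to 1.21). Against 8505C wt SW1736-PTX had 3.03 times the level (2.69 to 3.42), 1.57 on the log2 scale, just past the limit. 8505C-PTX lay below SW1736-PTX by a log2 difference of -1.50, also just past the limit, where 7.79% of all genes passed in either direction. SW1736-PTX thus held the highest SERPINB5 level of the 4 libraries, whichever library it was set against.

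PRSS3, mesotrypsin, a trypsin that resists many trypsin inhibitors (chromosome 9, 33750466 to 33799231, plus strand, 5 exons), had 2.55 FPKM in SW1736 wt and 4.04 in 8505C wt and was listed at 0 in SW1736-PTX and 8505C-PTX. Coverage and TPM of the gene were listed at 0 in both PTX libraries too. The wt values correspond to roughly 101 and 142 reads on the 808 bp transcript, or 134 and 189 if the deposited coverage is a mean over the whole 48766 bp locus. If the listed values stand for a count of 0, they allow up to 0.0641 FPKM in SW1736-PTX and 0.0693 in 8505C-PTX (3 reads each). The log2 differences of -4.73 and -5.37 are set by the pseudocount, ranging from -8.0 to -1.83 in SW1736 and from -8.66 to -2.33 in 8505C over the settings tried, but each was past the limit in every setting that kept the gene. Against 8505C wt, PRSS3 in SW1736-PTX was lower in the same way, since its level there was 0. No 75-base stretch of the transcript occurs in the transcripts of another gene, its near relatives PRSS1 and PRSS2 were listed at 0 in every library, and the opposite-strand gene UBE2R2-AS1 overlaps 8.91% of it. Among 14692 genes above 0.5 FPKM in at least 1 library, the patterns nearest to that of PRSS3, by Euclidean distance of log2(FPKM + 0.1) over the 4 libraries, were those of PNPLA4 (0.923), EVPL (1.58) and NTM (1.59). PNPLA4 was at 2.84 and 2.19 FPKM in SW1736 wt and 8505C wt and at 0.0239 and 0 FPKM in their PTX libraries.

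PRSS23, a secreted protease with a trypsin-like fold (chromosome 11, 86791059 to 86952903, plus strand, 2 exons), had 33.7 FPKM in SW1736 wt, against 40.04 in SW1736-PTX, 2.79 in 8505C wt and 38.4 in 8505C-PTX. 8505C wt stood apart, and the other 3 libraries lay within 1.19 times of each other. 8505C-PTX had 13.7 times the 8505C wt level (12.5 to 15.1), 3.73 on the log2 scale, and SW1736-PTX had 1.19 times the SW1736 wt level (1.15 to 1.23). Against 8505C wt SW1736-PTX had 14.3 times the level (13.0 to 15.8), whereas for SERPINE2 and SERPINB5 the low library was SW1736 wt. Between the PTX libraries PRSS23 was nearly equal (0.959 times in 8505C-PTX, 0.930 to 0.989).

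ST14, matriptase (chromosome 11, 130159787 to 130210362, plus strand, 19 exons), was listed at 0 in both wt libraries and at 0.0494 FPKM in SW1736-PTX and 0.0965 in 8505C-PTX, roughly 9 and 17 reads. All 4 values were far below 0.5 FPKM, so no comparison was made. The floor of 3 reads was 0.0185 FPKM in SW1736 wt and 0.0208 in 8505C wt. Of its partners, PRSS8 was listed at 0 in every library. The Kunitz inhibitor SPINT1 had 3.90 FPKM in SW1736 wt against 0.216 in SW1736-PTX, and 0.0853 and 0.348 in 8505C wt and 8505C-PTX. SPINT2 lay between 0.464 and 1.80 FPKM. Plasminogen (PLG), the substrate of both activators, was listed at 0 in all 4 libraries.

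The 250 bases before the RefSeq start are shown for PRSS3, SERPINB5 and PRSS23, the compared members with a level below 3 FPKM in at least 1 library (RefSeq table with entries used for 7 of the 9 genes, GRCh38.p14, plus strand, 5′ to 3′): chr9:33795311-33795560, chr18:63476708-63476957 and chr11:86800292-86800541. Capitals mark GGGCGG (GC box), TGANTCA (a loose AP-1-like pattern with any base at N) and TATAA (TATA). They were searched on both strands with overlapping copies counted, and GGNNTTTCC (kappaB) was searched too.
PRSS3 promoter: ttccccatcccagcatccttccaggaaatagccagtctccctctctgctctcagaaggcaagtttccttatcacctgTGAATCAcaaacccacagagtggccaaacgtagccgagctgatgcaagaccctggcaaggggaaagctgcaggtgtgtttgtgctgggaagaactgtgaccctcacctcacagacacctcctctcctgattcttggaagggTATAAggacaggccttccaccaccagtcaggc
SERPINB5 promoter: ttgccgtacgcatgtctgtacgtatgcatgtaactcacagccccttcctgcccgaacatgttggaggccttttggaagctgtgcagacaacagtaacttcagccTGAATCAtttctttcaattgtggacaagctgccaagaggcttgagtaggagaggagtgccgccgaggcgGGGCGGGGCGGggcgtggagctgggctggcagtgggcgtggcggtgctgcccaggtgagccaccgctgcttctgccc
PRSS23 promoter: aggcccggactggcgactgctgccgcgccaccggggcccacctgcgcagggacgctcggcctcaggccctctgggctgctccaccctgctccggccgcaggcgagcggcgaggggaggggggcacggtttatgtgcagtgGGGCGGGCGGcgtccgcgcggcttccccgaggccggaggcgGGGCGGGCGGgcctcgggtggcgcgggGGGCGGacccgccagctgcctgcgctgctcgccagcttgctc
The PRSS3 stretch held 1 AP-1-like match (TGAATCA), 1 TATA match and 2 CpG dinucleotides, against a median of 11 over 34943 promoters. The SERPINB5 stretch held 2 overlapping GC boxes and 1 AP-1-like match (TGAATCA), with 13 CpG. The PRSS23 stretch held 5 GC boxes, some overlapping, with 32 CpG and a GC content of 79.6%, against a median of 58%. Over all promoters of this length, GGGCGG was found in 42.5%, TGANTCA in 6.59%, GGNNTTTCC in 5.48% and TATAA in 19.0%. A match describes the letters and is neither a site nor a cause, and methylation and binding were not measured. PRSS3 has further starts upstream within its locus. The PRSS23 locus begins at 86791059, before its printed stretch, and the RefSeq table holds 2 entries for it. For both genes, which start the reads came from cannot be read from gene-level values.

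**Figure D3:**
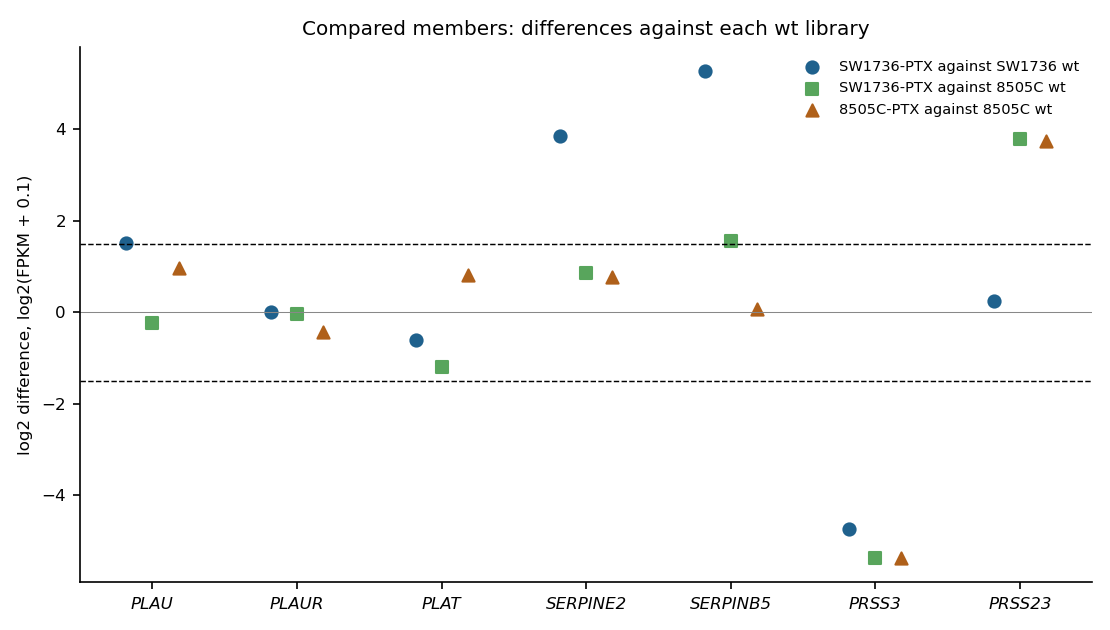
Log2 differences of FPKM + 0.1 for the 7 compared members: SW1736-PTX against SW1736 wt (circles), SW1736-PTX against 8505C wt (squares) and 8505C-PTX against 8505C wt (triangles), with dashed lines at the limit of 1.5 in each direction. PRSS3 is below the lower line in all 3, PLAU moves from 1.50 to -0.24 with the wt library used, and SERPINE2 from 3.85 to 0.86, while PRSS23 moves from 0.25 to 3.79.

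The wider family was taken as 7 lists with 120 gene names (plasminogen system, clade B serpins, other serpins, secreted trypsin-fold proteases, membrane-anchored proteases, small inhibitors of the Kunitz, Kazal and WAP types, and protease-activated receptors and substrates). Of these, 36 were compared in both lines, and 9 were higher past the limit in both (25%, against 7.37% of the 13304 genes compared in both lines). The lists were chosen with earlier results of these data known, so these shares are a description and were not tested. The 9 were HTRA1, HTRA3, KLK1, MST1, SERPINB1, SERPINI1, SLPI, TFPI2 and TMPRSS3, and all but HTRA1 were also past the limit in SW1736-PTX against 8505C wt. They are the proteases HTRA1, HTRA3, KLK1 and TMPRSS3, the inhibitors SERPINB1, SERPINI1, SLPI and TFPI2, and MST1, the ligand of the receptor MST1R; none is a member of the set described above. TFPI2, a matrix-bound Kunitz inhibitor of plasmin and trypsin, was the most abundant of them, going from 80.5 to 493.5 FPKM between the SW1736 libraries and from 51.9 to 188 FPKM between the 8505C libraries. SLPI, a WAP inhibitor of neutrophil elastase, was at 2.10 and 17.4 FPKM in SW1736 wt and SW1736-PTX, and at 0.256 and 8.44 FPKM in the 8505C libraries. SERPINB1, an intracellular inhibitor of neutrophil proteases, was at 8.0, 37.4, 9.20 and 34.8 FPKM in SW1736 wt, SW1736-PTX, 8505C wt and 8505C-PTX. SERPINI1 (neuroserpin), an inhibitor of PLAT, was at 0.0994, 17.4, 0.799 and 6.11 FPKM in those libraries.

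Of the proteases among the 9, HTRA1 was at 15.1, 43.9, 20.8 and 120.6 FPKM in SW1736 wt, SW1736-PTX, 8505C wt and 8505C-PTX. TMPRSS3 and HTRA3 were at most 0.0456 FPKM in the wt libraries and between 3.16 and 6.25 FPKM in the PTX libraries. The kallikrein KLK1 was listed at 0 in both wt libraries and at 4.72 and 0.821 FPKM in SW1736-PTX and 8505C-PTX. Lower in both lines was PRSS3 alone (2.78%, against 2.41% of all genes). F2R, the thrombin receptor, and SERPINA1, alpha-1 antitrypsin, passed the limit in opposite directions, lower in SW1736-PTX and higher in 8505C-PTX. F2R was at 54.2, 13.2, 7.79 and 41.4 FPKM and SERPINA1 at 7.73, 1.78, 0.217 and 1.96 FPKM, and against 8505C wt SW1736-PTX was higher in both, at 0.75 and 2.57 on the log2 scale.

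**Figure D4:**
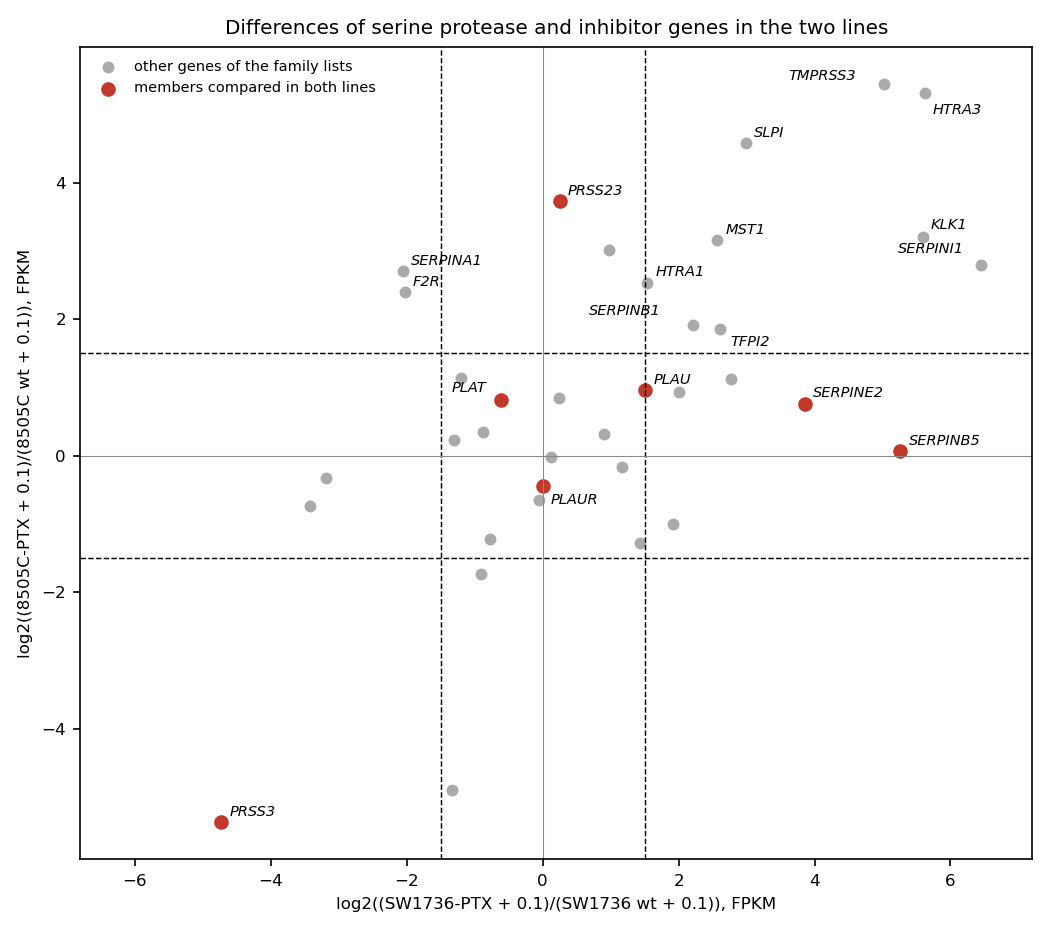
Each point is a gene of the 7 family lists compared in both lines, with its log2 difference in SW1736 on the x axis and in 8505C on the y axis; members of the described set are red and dashed lines mark 1.5 in each direction. PRSS3 (-4.73 and -5.37) lies lower left, 9 other genes lie upper right, and SERPINE2, SERPINB5, PRSS23 and, at 1.50, PLAU pass in 1 line only.

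Over the 7 lists together, 17 of 41 genes compared were higher in SW1736 and 8 lower (41.5% and 19.5%, against 15.7% and 10.2% of all genes), and in 8505C 15 of 42 were higher and 4 lower (35.7% and 9.52%, against 15.0% and 5.89%). These lists were chosen with earlier results known, and each holds too few compared genes to be read against those shares. In the plasminogen system, apart from the members described above, 6 of 12 names were compared in each line. None passed in SW1736-PTX against SW1736 wt, with a median of 0.04. In 8505C LRP1, the endocytic receptor that clears activator-inhibitor complexes, was higher and PLGRKT, a plasminogen receptor, was lower, with a median of 0.14. Against 8505C wt, SW1736-PTX was past the limit in the same direction in LRP1 and PLGRKT. It was also higher in F12, just past the limit at 1.51, and the median was -0.01. LRP1 was at 3.41, 6.80, 1.34 and 11.4 FPKM in SW1736 wt, SW1736-PTX, 8505C wt and 8505C-PTX. The counts for the other lists include the members. Of the 13 clade B serpins 6 were compared in SW1736, where SERPINB1, SERPINB5 and SERPINB7 were higher and SERPINB9 lower, and 5 in 8505C, where only SERPINB1 was past the limit. Of 29 secreted trypsin-fold proteases 6 were compared in SW1736, with 3 higher and 1 lower, and 7 in 8505C, with 4 higher and 1 lower. Of 16 small inhibitors 8 were compared in SW1736, with 4 higher and 2 lower, and 6 in 8505C, with 2 higher and none lower. Of 19 other serpins 4 were compared in SW1736, with 2 higher and 1 lower, and 6 in 8505C, with 3 higher and none lower. Of 20 membrane-anchored proteases 2 were compared in SW1736, both higher, and 3 in 8505C, with 1 higher and 1 lower. Of 10 protease-activated receptors and substrates 6 were compared in each line, with 2 higher and 3 lower in SW1736 and 3 higher and 1 lower in 8505C. Most of the family was thus at or below 0.5 FPKM in these cells.

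Position was examined because the choice of members did not use it. Within 1 Mb of PRSS3, 28 genes were compared in SW1736, of which 1 was higher and 6 lower, and 24 in 8505C, of which 3 were higher and 3 lower. The lower ones were 21.4% and 12.5% of those compared, against 10.2% and 5.89% of all genes, while the medians were 0.06 and -0.20, against 0.01 and 0.11. The 6 in SW1736 were UBAP2, SNORD121B, ANKRD18B, SUGT1P1, NOL6 and MIR6851. They include a small nucleolar RNA gene and a microRNA gene, and overlap among the 6 was not checked. No test of the neighbourhood was made. The only neighbour lower in both lines was NOL6, a nucleolar protein gene 276523 bp away, at 31.1, 5.92, 29.0 and 4.98 FPKM. Near SERPINB5, 8 genes were compared in each line; SERPINB7 and HMSD were higher in SW1736 and none passed in 8505C, with medians of 0.92 and 0.01. Near PRSS23, none of 9 genes passed in SW1736, and of 8 in 8505C ME3 and SYTL2 were higher and EED was lower. Near PLAU, none was higher in either line, with 2 of 26 lower in SW1736 and 1 of 25 in 8505C. Of all genes compared, 15.7% were higher in SW1736 and 15.0% in 8505C. The neighbourhoods of SERPINB5 and PRSS23 hold too few genes to be read against those shares.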

How the data were processed

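One mRNA library per condition of the ATC lines SW1736 and 8505C was analysed. According to the study's methods and the submitters' processing notes, the authors ran bcl2fastq 2.20, Cutadapt for adapters and ERNE for low-quality bases on reads of 75 bp, then STAR against hg38 and StringTie per gene. The deposited tables give the coverage signal per gene, which the authors did not scale for depth, FPKM (scaled to length and depth) and TPM (scaled to an equal total). No read counts were used, so no count test was run, and with 1 library per condition no p-value was computed. Here FPKM of repeated gene names were summed, 0.1 was added, and the study's limits (0.5 FPKM, 1.5 on the log2 scale) were applied. Depth came from the highest ratio of coverage to FPKM; approximate reads are FPKM times the GENCODE release 44 MANE transcript length times depth, with 95% Clopper-Pearson intervals and a floor of 3 reads, both covering counting error only. The code for the calls was run on simulated data with counting noise alone. That check does not cover low genes, differences near the limit or the variation between cultures. The members and the 7 lists were chosen with earlier results of these data known, and some genes of the lists are not reported here. Named genes are the 9 members, their direct partners, the list genes past the limit in both lines or in opposite directions, the 3 genes nearest to PRSS3 and, beside a member, neighbours lower or higher with it in both lines; LRP1, PLGRKT, PSMD5 and the other genes named once with a list, a neighbourhood count or a difference between the lines were named after their values were seen. Python 3.11.15, NumPy 2.4.6, pandas 2.3.3, SciPy 1.17.1 and matplotlib 3.10.9 were used.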

Additional observations from a re-analysis of the deposited data

Results flagged for a closer look

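Of the 36 genes of the lists compared in both lines, 11 differed in opposite directions, and for 8 of them the counting intervals of both ratios excluded 1. The same shares over all genes were not computed, so these counts are not read as particular to the lists. None of these differences between the lines was tested, because every condition had 1 library. Lower in SW1736-PTX and higher in 8505C-PTX than in the parental library were PLAT, F2R, SERPINA1, SERPINH1 (a collagen chaperone) and S100A10 (a plasminogen receptor subunit), with a log2 difference in SW1736 minus that in 8505C of -1.42, -4.43, -4.76, -2.32 and -1.22. The reverse was found for SERPINB7, SPINT2 and TFPI, at 2.92, 2.71 and 1.34. F2R and SERPINA1 were past the limit in both lines, SERPINB7 in SW1736 alone, and the others in neither. PLAT was the 1 member of the described set among the 8. Against 8505C wt, F2R and SERPINA1 were higher in SW1736-PTX, while PLAT stayed lower. On the log2 scale SERPINH1 and S100A10 stayed lower there, at -0.09 and -0.65, and SERPINB7 stayed higher, at 2.49. SPINT2 and TFPI changed sign, to -0.33 and -0.79, so that against 8505C wt both PTX libraries were lower in them.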

How the results depend on the processing

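The 171 log2 differences of the 9 members were recomputed under 10 alternatives in SW1736 and 9 in 8505C. A sign could change under TPM, centring or 8505C wt as comparator alone (45 values), and did in 5 of these. PLAU in SW1736-PTX reversed, from 1.50 to -0.24, with 8505C wt as the comparator, and differences near 0 changed sign for PLAUR in SW1736 (lowest -0.05) and SERPINB5 in 8505C (lowest -0.04). Members higher past the limit in SW1736 numbered 3 or 2, the latter without PLAU where its value fell short, without SERPINB5 where both libraries had to exceed 0.5 FPKM, and with SERPINB5 and PRSS23 alone against 8505C wt. The members lower past the limit were 1 in each line, and 0 in each line when FPKM above 0.5 was asked of both libraries, because PRSS3 then left the comparison; without an FPKM minimum they were 2 in SW1736, SERPINB2 being added. Each PTX library was compared with the wt library of its own line; a fit over the 2 lines as pairs would leave 1 residual degree of freedom and was not run, since the members were chosen on these differences. Without any 1 library, its line has no difference left to compute. Depth limits SERPINB2 and ST14, at most about 31 reads a library.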
